A study of Mus musculus with 23 samples.

Results

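The response of the mouse ovary to diet was compared between 2 inbred strains, NZO/HlLtJ and CAST/EiJ. For each gene, the log2 difference between the 44% and the 10% fat diet was taken in NZO/HlLtJ and in CAST/EiJ, and the second was subtracted from the first. This strain-by-diet difference is below 0 where the diet difference was more positive in CAST/EiJ, and above 0 where it was more positive in NZO/HlLtJ. The samples were chosen by strain and diet in their titles, which gave 16 of the 23 RNA-seq libraries of the series, 4 in each of 4 groups. NZO/HlLtJ is an inbred strain that becomes obese and prone to diabetes through many loci, and CAST/EiJ is an inbred strain of wild castaneus origin. All were females labelled wild type with no further treatment. They ate a control diet (10% fat + fiber) or a high fat, high sugar diet (44% fat + fiber) from week 6 of age, and the ovaries were taken at week 15. The parts of fat and sugar cannot be told apart. The stage of the oestrous cycle was not labelled. The remaining 7 libraries, from C57BL/6J, entered only the gene filter, the joint scaling of the libraries and the shared estimate of the spread.

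The ovary grows follicles, in which granulosa cells surround the oocyte and theca cells supply androgen. After ovulation the follicle wall becomes the corpus luteum, whose luteal cells take up cholesterol and, starting in their mitochondria, turn it into progesterone. Corpora lutea later regress, and macrophages clear them with the help of the lysosome, the compartment in which cathepsins and other acid hydrolases digest protein, lipid and sugar chains. A strain-by-diet difference in whole-ovary RNA can therefore show in genes of several of these cell types at once.

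Library totals ran from 31.94 to 45.39 M counts in the 16 libraries, and 20189 of the 24716 genes listed were tested. Levels are CPM (counts scaled to a common library size), given per library in the order of replicates 1 to 4, or as mean ± SD with n = 4. Where values of a strain are given as a pair, the 10% fat diet comes first. Ovarian markers were present in every library. Summed over 13 granulosa cell markers the level ran from 2729.6 to 7724 CPM, and summed over 14 oocyte markers from 455 to 872 CPM, with no oocyte marker at 0. Replicate 2 of CAST/EiJ on 10% fat stood apart. Its 10 oviduct epithelium markers summed to 5218 CPM, against 46.6 to 50.3 CPM in the other 3 libraries of the group, and its granulosa and luteal marker sums, 2729.6 and 2942 CPM, were the lowest of the 16 libraries. List medians that move by over 1.5 times without that library are given both ways, a comparison chosen after the data were seen.

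In CAST/EiJ, 3 genes were higher on the 44% fat diet, while in NZO/HlLtJ none of the 3 passed the test for diet. These were the only genes of which the strain-by-diet difference passed an adjusted p of 0.05 (edgeR's quasi-likelihood test, Benjamini-Hochberg adjustment), or 0.0149% of those tested, and all 3 differences were below 0. The diet difference within CAST/EiJ passed for 126 genes (0.624%), these 3 included. The 3 genes were *Tbx3*, a T-box transcription factor gene of embryonic patterning and of hormone-responsive tissues, *Cotl1*, which codes for an actin filament binding protein abundant in blood cells, and *Tst*, which codes for the mitochondrial sulfurtransferase rhodanese. No gene passed with a difference above 0, although 1059 (5.25%) lay above 0 at an unadjusted p under 0.05 and 51 passed in DESeq2.

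*Tbx3* (ENSMUSG00000018604) lies on chromosome 5, at 119670669-119684724 on the forward strand of GRCm38. Its level in CAST/EiJ was 53.9, 41.1, 64.4 and 53.2 CPM on 10% fat and 118, 103, 129 and 118 CPM on 44% fat. In NZO/HlLtJ it was 124, 127, 184 and 148 CPM on 10% fat and 111, 133, 116 and 131 CPM on 44% fat. All 4 CAST/EiJ libraries on 44% fat were above all 4 on 10% fat, whereas the NZO/HlLtJ diets overlapped. CAST/EiJ on 10% fat was the low group of the 4, with no library above 64.4 CPM, and on 44% fat the CAST/EiJ libraries overlapped those of NZO/HlLtJ on both diets. *Tbx3* rose 2.21-fold with diet in CAST/EiJ (log2 1.14 ± 0.16 SE, adjusted p = 0.0034), and the NZO/HlLtJ log2 difference was -0.25 ± 0.15 SE. The strain-by-diet difference was -1.39 ± 0.22 (log2, SE; adjusted p = 0.0432).

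*Cotl1* (ENSMUSG00000031827) lies on the reverse strand of chromosome 8, at 119809225-119840579. The CAST/EiJ libraries had 24.3, 29.3, 26.5 and 28.2 CPM on 10% fat and 59.6, 49.1, 41.7 and 34.9 CPM on 44% fat. The NZO/HlLtJ libraries had 29.9, 27.8, 35.5 and 37.4 CPM on 10% fat and 23.5, 24.5, 27.2 and 28.2 CPM on 44% fat. The CAST/EiJ diets did not overlap, and the NZO/HlLtJ diets did, by replicate 2 on 10% fat and replicate 4 on 44% fat. *Cotl1* rose 1.71-fold in CAST/EiJ (log2 0.78 ± 0.13 SE, adjusted p = 0.011) against a log2 difference of -0.34 ± 0.13 SE in NZO/HlLtJ, which gave a strain-by-diet difference of -1.11 ± 0.18 (log2, SE; adjusted p = 0.0432).

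*Tst* (ENSMUSG00000044986) lies on the reverse strand of chromosome 15, at 78399556-78405859. Its CAST/EiJ levels were 58.1, 46.9, 74.4 and 76.03 CPM on 10% fat and 112, 127, 123 and 96.5 CPM on 44% fat. Its NZO/HlLtJ levels were 112, 93.1, 137 and 104 CPM on 10% fat and 83.2, 82.8, 84.7 and 102 CPM on 44% fat. As for the other 2 genes, only the CAST/EiJ diets were separate. *Tst* rose 1.80-fold in CAST/EiJ (log2 0.85 ± 0.14 SE, adjusted p = 0.011), the NZO/HlLtJ log2 difference was -0.34 ± 0.14 SE, and the strain-by-diet difference was -1.19 ± 0.20 (log2, SE; adjusted p = 0.0432).

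**Figure D1:**
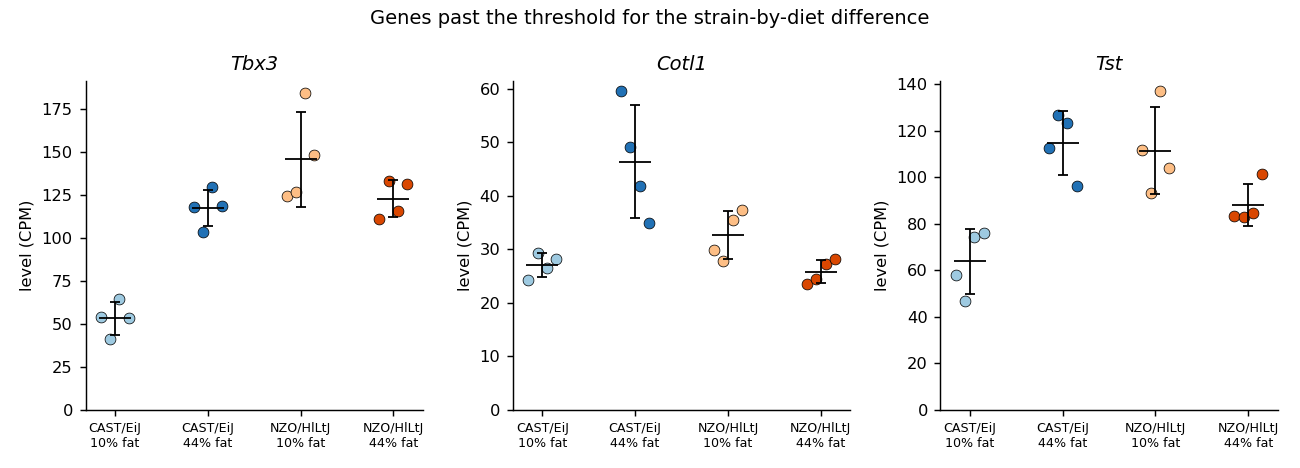
Levels (CPM, y axis from 0) of *Tbx3*, *Cotl1* and *Tst* in each library of the 4 groups on the x axis. Points are libraries, the horizontal line is the group mean and the bars are ± SD (n = 4). In each panel the 4 CAST/EiJ libraries on 44% fat lie above the 4 on 10% fat, while the NZO/HlLtJ diets overlap.

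Whether the 3 genes passed varied with the model. With DESeq2, 194 of 18091 genes passed (1.07%), 143 below 0 and 51 above, among them all 3, with adjusted p of 2.59e-05 for *Tbx3* and 6.43e-05 for both others. With only the 16 libraries in the edgeR fit no gene passed (2177 at an unadjusted p under 0.05), and leaving out 1 library at a time gave 0 to 11 genes. Across 34 alternatives the strain-by-diet difference stayed between -1.49 and -1.16 for *Tbx3*, between -1.55 and -0.94 for *Cotl1* and between -1.28 and -0.87 for *Tst*. Library identifiers begin with 76, 82 or 90, which no label calls a batch, and only series 76 held all 4 groups. Outside series 76, the NZO/HlLtJ libraries on 10% fat were all in 82 and those on 44% fat all in 90. Within series 76, with 1 CAST/EiJ library per diet and the spread taken from the NZO/HlLtJ pairs, the differences were -1.16, -1.55 and -1.24, in the same order. With identifier series in the model none of the 3 passed. Their differences were then -1.45, -1.03 and -1.28, with adjusted p of 0.0812, 0.212 and 0.212. Without replicate 2 of CAST/EiJ on 10% fat all 3 genes still passed, each with an adjusted p of 0.0458.

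The next 17 genes by p did not pass the threshold and are given as values. Of the 20 genes with the smallest p, 19 had a difference below 0, and in 20 of 20 the CAST/EiJ and NZO/HlLtJ log2 diet differences had opposite signs. Choosing genes by the p of the difference between the strains itself favours opposite signs, and no gene passed the test for diet in NZO/HlLtJ. *Tmem86a*, which codes for a lysoplasmalogenase, an enzyme of ether lipid breakdown, had 113, 90.9, 141 and 142 CPM in CAST/EiJ on 10% fat and 310.1, 253, 395 and 230 CPM on 44% fat. The NZO/HlLtJ values were 377, 342, 537 and 405 CPM on 10% fat and 338, 402, 319.9 and 419.9 CPM on 44% fat, and its strain-by-diet difference was -1.46 ± 0.26 (log2, SE; adjusted p = 0.063). The gene rose 2.44-fold in CAST/EiJ (adjusted p = 0.0034), with no overlap between diets, and the NZO/HlLtJ diets overlapped. *Cyp4f18*, of the P450 subfamily that hydroxylates fatty acids and leukotrienes, had 6.36, 9.73, 9.66 and 4.36 CPM in CAST/EiJ on 10% fat and 36.9, 34.4, 65.2 and 38.05 CPM on 44% fat. In NZO/HlLtJ it was low on both diets, at 0.620, 0.732, 2.60 and 1.10 CPM on 10% fat and 1.18, 0.808, 0.888 and 1.40 CPM on 44% fat. It rose 5.80-fold in CAST/EiJ, and its strain-by-diet difference was -2.78 ± 0.50 (log2, SE; adjusted p = 0.063). Its relative *Cyp4f14* had 1.72 ± 0.390 CPM and 5.72 ± 2.22 CPM on the same diets in CAST/EiJ, against 7.33 ± 3.19 and 4.996 ± 0.929 CPM in NZO/HlLtJ. How the counting divided reads shared by such relatives is not given in the sources used here.

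Several of the others code for proteins of mitochondria or of acyl chain metabolism. *Dnajc15*, a mitochondrial inner membrane co-chaperone gene, had 32.7 ± 2.20 CPM on 10% and 64.9 ± 6.82 CPM on 44% fat in CAST/EiJ, and 95.3 ± 32.9 and 76.4 ± 7.61 CPM in NZO/HlLtJ. *Acadm*, which codes for medium-chain acyl-CoA dehydrogenase, had the smallest error of the 20, with 107, 116, 129 and 109 CPM on 10% and 167, 160.3, 155 and 148 CPM on 44% fat in CAST/EiJ. Its NZO/HlLtJ means were 155 ± 9.08 and 153 ± 8.67 CPM, and its strain-by-diet difference was -0.47 ± 0.091 (log2, SE; adjusted p = 0.0787). It rose 1.36-fold in CAST/EiJ (adjusted p = 0.0034), and the libraries on 44% fat overlapped those of NZO/HlLtJ while the 4 on 10% fat were below them. *Acot7*, an acyl-CoA thioesterase gene, had a strain-by-diet difference of -0.89 ± 0.18 (log2, SE), *Cyb5b*, of outer membrane cytochrome b5, -0.62 ± 0.13, and *Agxt2*, a mitochondrial aminotransferase gene, -1.96 ± 0.38.

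Genes known from blood cells and from lysosomes were also among the 20. *Fermt3*, which codes for kindlin-3, an integrin activator of blood cells, had 3.64, 4.59, 4.25 and 5.12 CPM on 10% and 11.4, 14.5, 8.55 and 8.67 CPM on 44% fat in CAST/EiJ, with NZO/HlLtJ means of 6.05 ± 0.977 and 5.67 ± 0.707 CPM. *Parvg*, of the actin-linked parvin family in the same cells, had CAST/EiJ means of 5.74 ± 1.73 and 12.1 ± 2.55 CPM and NZO/HlLtJ means of 1.95 ± 0.180 and 1.63 ± 0.243 CPM. Both genes rose in CAST/EiJ, 2.45-fold (adjusted p = 0.0034) and 2.10-fold (adjusted p = 0.0156). *Slc36a1*, which codes for a proton-coupled amino acid transporter of the lysosome, had 30.4, 38.3, 36.9 and 32.9 CPM on 10% and 45.9, 52.3, 47.2 and 47.04 CPM on 44% fat in CAST/EiJ. NZO/HlLtJ had 43.4, 38.5, 46.03 and 39.4 CPM on 10% and 35.4, 31.8, 37.2 and 37.9 CPM on 44% fat. Neither pair of diets overlapped, and the strains lay in opposite directions, with a strain-by-diet difference of -0.71 ± 0.13 (log2, SE; adjusted p = 0.0766). *Ctsa*, of cathepsin A, is described with the lysosomal genes.

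The 1 positive difference was that of *Caps2*, a calcyphosine gene, which had 4.997, 7.36, 4.92 and 5.05 CPM on 10% and 4.40, 3.63, 3.06 and 3.95 CPM on 44% fat in CAST/EiJ. In NZO/HlLtJ it had 2.48, 2.40, 2.15 and 2.23 CPM on 10% and 4.001, 4.10, 3.50 and 3.24 CPM on 44% fat. Every CAST/EiJ library was lower on 44% fat and every NZO/HlLtJ library was higher, with a difference of 1.25 ± 0.25 (log2, SE; adjusted p = 0.0966). *Plekhg4*, a guanine nucleotide exchange factor gene, had the largest difference of the 20, -6.26 ± 1.25 (log2, SE; adjusted p = 0.0966), and a wide spread. It had 3.10, 3.61, 7.32 and 0.867 CPM on 10% and 196, 16.3, 42.5 and 20.1 CPM on 44% fat in CAST/EiJ, and 104, 28.9, 10.4 and 64.5 CPM and 15.1, 16.8, 5.87 and 12.4 CPM in NZO/HlLtJ. *F7*, of coagulation factor VII, was below 7 CPM in every library, with a difference of -3.23 ± 0.66 (log2, SE). *Sez6l2*, a membrane protein gene known from neurons, had a difference of -1.14 ± 0.24, and *Fggy*, a carbohydrate kinase gene, -0.97 ± 0.20. *Fggy* had 17.4 ± 1.90 and 22.5 ± 3.04 CPM in CAST/EiJ but 1.07 ± 0.102 and 0.707 ± 0.160 CPM in NZO/HlLtJ.

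**Figure D2:**
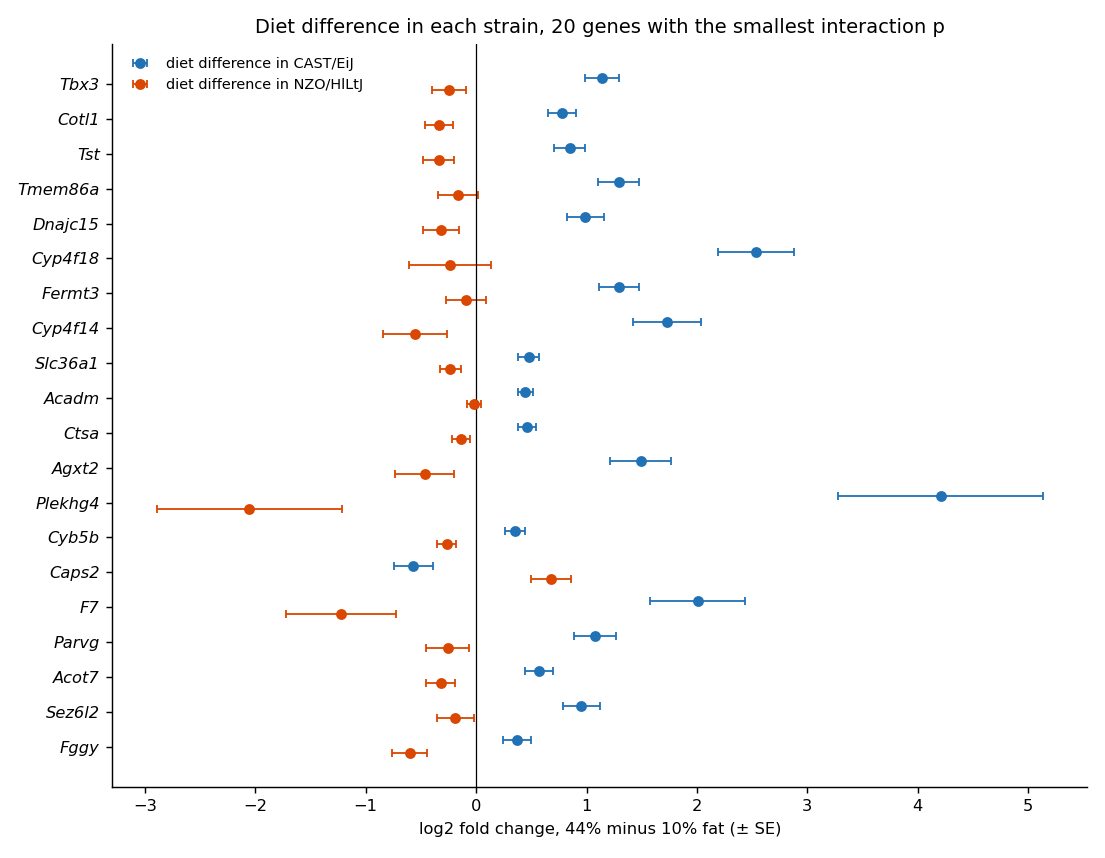
Diet difference (log2 fold change, 44% minus 10% fat, ± SE, x axis) in CAST/EiJ and in NZO/HlLtJ for the 20 genes with the smallest strain-by-diet p (y axis, in order of p). For 19 of the 20, *Caps2* being the exception, the CAST/EiJ value is above 0 and the NZO/HlLtJ value below 0. The choice of genes by the difference between the strains favours such opposite signs.

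The lysosomal hydrolases and membrane proteins were the list with the largest share of members at an unadjusted p under 0.05 among the 34 lists. Of 29 members tested, 20 lay below 0 at that p and none above, against 6.13% of all genes below and 5.25% above, and 27 of 29 were negative. None passed the adjusted threshold in edgeR (the smallest adjusted p was 0.0787), and 10 passed in DESeq2, where 1.07% of all genes passed. The list's median strain-by-diet difference was -0.51, against 0.02 over all genes tested, with a median diet difference of 0.35 in CAST/EiJ and -0.13 in NZO/HlLtJ, and its members ran from -2.08 to 0.20. In 16 of 29 members the CAST/EiJ diets did not overlap (5.88% of all genes), and in 1 the NZO/HlLtJ diets did not (2.96%).

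*Ctsa*, which codes for cathepsin A, the protease that also shields lysosomal sialidase and galactosidase, had 133, 131, 141 and 134 CPM on 10% and 182, 195, 203 and 164 CPM on 44% fat in CAST/EiJ. The levels in NZO/HlLtJ were 144, 133, 175 and 153 CPM on 10% and 127, 131, 146 and 146 CPM on 44% fat. It rose 1.38-fold in CAST/EiJ (adjusted p = 0.016) with no overlap, and its strain-by-diet difference was -0.60 ± 0.12 (log2, SE; adjusted p = 0.0787). *Lgmn*, of the asparaginyl protease legumain, had 71.5, 95.2, 107 and 80.2 CPM on 10% and 476.4, 253, 302 and 179 CPM on 44% fat in CAST/EiJ. Among the NZO/HlLtJ libraries it had 226, 221, 198 and 197 CPM on 10% and 180.3, 182, 104 and 216 CPM on 44% fat. The gene rose 3.42-fold in CAST/EiJ (adjusted p = 0.0193), with no overlap between its diets, and the strain-by-diet difference was -2.08 ± 0.46 (log2, SE; adjusted p = 0.157). *Lipa*, of lysosomal acid lipase, which frees cholesterol from its esters, had CAST/EiJ means of 88.9 ± 13.4 and 149 ± 16.9 CPM and NZO/HlLtJ means of 86.1 ± 12.9 and 74.5 ± 2.80 CPM. Its strain-by-diet difference was -0.95 ± 0.21 and that of *Ctsz*, of the carboxypeptidase cathepsin Z, -0.61 ± 0.13 (log2, SE). *Ctsd*, of the aspartic protease cathepsin D, had 552, 674, 602 and 568 CPM on 10% and 888, 1333, 1044 and 846 CPM on 44% fat in CAST/EiJ. Its NZO/HlLtJ means were 446 ± 71.8 and 421 ± 45.4 CPM, and its difference was -0.86 ± 0.20 (log2, SE; adjusted p = 0.165).

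As a summary per library, each member's log2 CPM was set against the mean of the same strain on 10% fat, and the median over the 29 members was taken. It lay between 0.26 and 0.47 in CAST/EiJ on 44% fat, against -0.04 and 0.05 on 10% fat. In NZO/HlLtJ it lay between -0.21 and -0.02 on 44% fat, against -0.18 and 0.20 on 10% fat. The 4 CAST/EiJ libraries on 44% fat were all above the other 12.

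Many lysosomal genes share a promoter element, the E-box core TCACGTGA, to which transcription factors of the TFEB family bind, so the stretches before the start sites are shown for a member with it, *Ctsd* (chr7:142387828-142388077, reverse strand), and a member without it, *Ctsa* (chr2:164832622-164832871, forward strand). Both are RefSeq sequences of the GRCm38.p6 reference, which is a C57BL/6J genome and not that of CAST/EiJ or NZO/HlLtJ. They cover the 250 bases up to the start site, 5′ to 3′ on the gene's strand, with the element in capitals.
Ctsd: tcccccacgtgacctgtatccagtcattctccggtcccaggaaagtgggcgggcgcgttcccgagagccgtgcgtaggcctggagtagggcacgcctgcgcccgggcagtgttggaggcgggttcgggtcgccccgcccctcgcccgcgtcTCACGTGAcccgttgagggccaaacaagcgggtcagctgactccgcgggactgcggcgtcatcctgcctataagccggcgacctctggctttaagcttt
Ctsa: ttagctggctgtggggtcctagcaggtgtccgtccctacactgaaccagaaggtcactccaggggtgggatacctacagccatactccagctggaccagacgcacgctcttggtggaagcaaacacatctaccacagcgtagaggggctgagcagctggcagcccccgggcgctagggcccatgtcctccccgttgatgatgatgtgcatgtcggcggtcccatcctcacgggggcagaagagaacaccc
The element stood 99 to 92 bases before the start of *Ctsd* and was not in the *Ctsa* window. Its letters read the same on both strands. It was found in 3 of the 21 lysosomal list members with a promoter entry (14.3%), namely *Ctsd*, *Mcoln1* and *Gla*, and in 171 of 13111 tested genes with an entry (1.3%). A match describes the letters only. Of the 3 genes that hold it, only *Ctsd* had an unadjusted p under 0.05.

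Summed macrophage markers were high in the same CAST/EiJ libraries as the lysosomal genes. Of 13 markers, 7 lay below 0 at an unadjusted p under 0.05 and none above, against 6.13% and 5.25% of all genes. None passed the adjusted threshold in edgeR and 4 passed in DESeq2, against 1.07% of all genes there. The median strain-by-diet difference was -0.73, with 0.81 in CAST/EiJ and 0.04 in NZO/HlLtJ. Of the 13, 11 were negative and 2 positive, *Cd14* (0.64) and *Mertk* (0.23), and the values of *Cx3cr1* and *Cd163* were -0.18 and -0.03. The 13 markers together summed to 401 to 526 CPM in CAST/EiJ on 10% fat and 742 to 1904 CPM on 44% fat. In NZO/HlLtJ they summed to 352 to 547 CPM on 10% fat and 450 to 499 CPM on 44% fat, with no marker at 0 in any library. The highest sum was that of replicate 2 of CAST/EiJ on 44% fat, and the other 3 of that group were also above every library of the other 3 groups. In whole tissue, fewer cells of a type and less RNA per cell cannot be told apart, and the part of macrophage RNA in the lysosomal result was not tested.

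The 3 chains of complement C1q, which macrophages secrete, had similar values. *C1qb* had 21.4, 25.4, 30.7 and 29.04 CPM on 10% and 46.5, 82.3, 42.9 and 47.1 CPM on 44% fat in CAST/EiJ, and 33.6, 23.9, 40.2 and 43.2 CPM and 32.1, 31.2, 35.6 and 35.97 CPM in NZO/HlLtJ. It rose 2.06-fold in CAST/EiJ (adjusted p = 0.0187), and its strain-by-diet difference was -1.10 ± 0.27 (log2, SE; adjusted p = 0.165). For *C1qa* and *C1qc* the differences were -1.09 ± 0.28 and -0.94 ± 0.27, and both also rose in CAST/EiJ, 2.03-fold and 2.01-fold (adjusted p = 0.0219 and 0.0187). *Cd68*, of a glycoprotein of the macrophage endosome, had CAST/EiJ means of 19.8 ± 1.56 and 42.7 ± 16.99 CPM and NZO/HlLtJ means of 18.7 ± 5.73 and 16.4 ± 2.004 CPM. Of 12 genes that mark lipid-laden macrophages, 2 (*Ctsd* and *Atp6v0d2*) are also lysosomal list members. At an unadjusted p under 0.05, 6 of the 12 lay below 0 and none above (6.13% and 5.25% of all genes). In all, 9 were negative and 3 positive, *Lpl* (0.85), *Cd36* (0.52) and *Cd9* (0.33). The list's median was -1.17 (-0.76 without replicate 2 of CAST/EiJ on 44% fat). No member passed the adjusted threshold in edgeR and 3 passed in DESeq2 (1.07% of all genes). *Gpnmb*, a transmembrane glycoprotein gene of lipid-laden phagocytes, had 62.2, 46.97, 70.03 and 89.6 CPM on 10% and 135, 512, 192 and 239 CPM on 44% fat in CAST/EiJ, and 13.5, 16.6, 46.7 and 35.9 CPM and 11.4, 19.7, 36.99 and 25.5 CPM in NZO/HlLtJ. *Atp6v0d2*, of a proton pump subunit, had a difference of -2.003 ± 0.57 (log2, SE), and *Lgals3*, of galectin-3, -2.05 ± 0.57. *Atp6v0d2* was highest in the same CAST/EiJ library as the macrophage sum, at 43.9 CPM against 15.2 to 17.7 CPM in the other 3 on 44% fat.

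**Figure D3:**
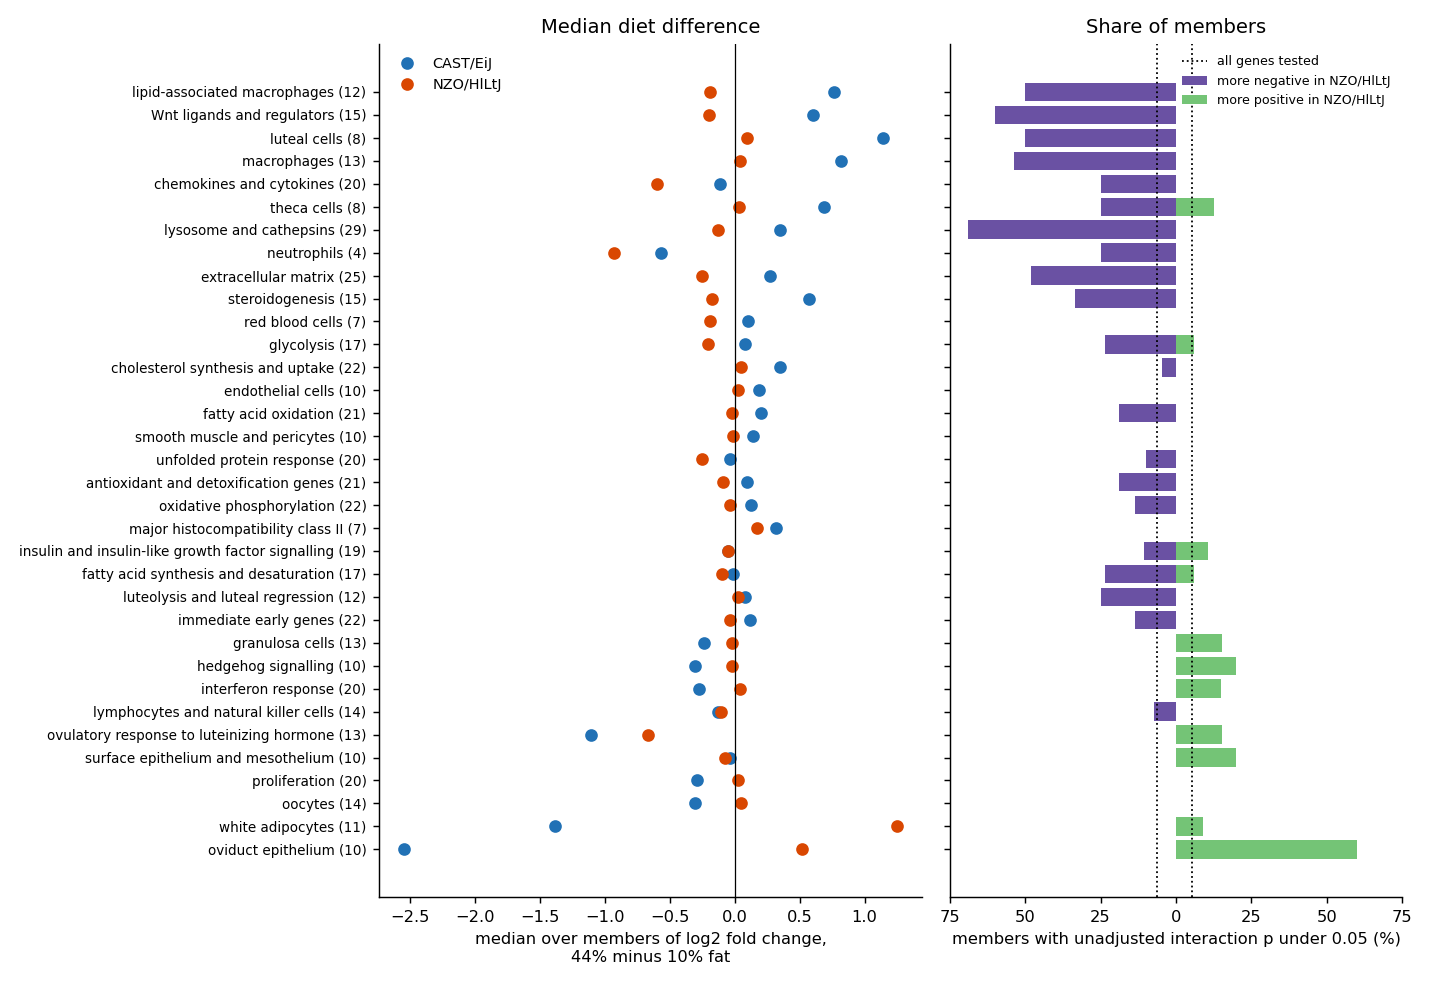
Left, median over the members of each list of the diet difference (log2, 44% minus 10% fat, x axis) in CAST/EiJ and in NZO/HlLtJ, with the number of members tested in brackets. Right, share of members (%) with an unadjusted strain-by-diet p under 0.05 in each direction, with dotted lines at the shares of all genes tested (6.13% and 5.25%). The lysosomal list has the longest bar, 20 of 29 members, and the CAST/EiJ points of the macrophage, luteal and Wnt lists lie to the right of the NZO/HlLtJ points.

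Steroid synthesis genes turn cholesterol into progesterone, androgens and oestrogens. Of 15 members tested, 5 lay below 0 at an unadjusted p under 0.05 and none above (6.13% and 5.25% of all genes), with a median of -0.47. None passed the adjusted threshold in edgeR and 3 passed in DESeq2 (1.07% of all genes). *Cyp11a1*, of the enzyme that cleaves the cholesterol side chain, the first step to all steroids, had 1150, 2083, 1646 and 1155 CPM on 10% and 3646, 3624, 4923 and 3222 CPM on 44% fat in CAST/EiJ. In NZO/HlLtJ it had 1239, 1561, 2348 and 944 CPM on 10% and 1365, 1344, 871 and 1822 CPM on 44% fat. It rose 2.55-fold in CAST/EiJ (adjusted p = 0.0219), where all 4 libraries on 44% fat were above every other library, and its strain-by-diet difference was -1.53 ± 0.38 (log2, SE; adjusted p = 0.165). It receives electrons from ferredoxin and its reductase. *Fdx1*, of ferredoxin, had 229, 326, 331 and 198 CPM on 10% and 411, 617, 599 and 437 CPM on 44% fat in CAST/EiJ, with NZO/HlLtJ means of 288 ± 73.99 and 244 ± 38.1 CPM and a difference of -1.17 ± 0.28 (log2, SE). *Fdxr*, of ferredoxin reductase, had a difference of -1.10 ± 0.28, and *Por*, of the reductase that serves microsomal P450 enzymes, -0.62 ± 0.19. Without replicate 2 of CAST/EiJ on 10% fat the list's median was -0.23, with 7 members below 0 and 1 above at that p.

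Luteal cell markers had 4 of 8 members below 0 at an unadjusted p under 0.05 and none above, where all genes had 6.13% and 5.25%. All 8 were negative, with a median of -0.82, none passed the adjusted threshold in edgeR and 1 passed in DESeq2 (1.07% of all genes). *Akr1c18*, whose enzyme inactivates progesterone as corpora lutea regress, had 30.7, 2.47, 90.8 and 2.65 CPM on 10% and 634, 182, 120.1 and 255 CPM on 44% fat in CAST/EiJ. NZO/HlLtJ had 215, 26.2, 25.5 and 132 CPM on 10% and 6.64, 9.58, 24.3 and 4.06 CPM on 44% fat. The diets were separate in both strains and in opposite directions, and the strain-by-diet difference was -6.40 ± 1.43 (log2, SE; adjusted p = 0.158 in edgeR, 0.000885 in DESeq2). *Ptgfr*, of the prostaglandin F receptor through which luteal regression is triggered, had 12.5, 14.3, 31.2 and 3.39 CPM on 10% and 206, 43.8, 138 and 55.6 CPM on 44% fat in CAST/EiJ. In NZO/HlLtJ the means were 148 ± 94.2 and 181 ± 100.4 CPM, and the difference was -2.56 ± 1.03 (log2, SE). *Scarb1*, of the receptor that brings in cholesterol from high density lipoprotein, had CAST/EiJ means of 392 ± 72.2 and 732 ± 204 CPM, NZO/HlLtJ means of 403 ± 58.2 and 423 ± 42.3 CPM, and a difference of -0.83 ± 0.33. The 8 markers summed to 2942 to 6286 CPM in CAST/EiJ on 10% fat and to 7799 to 9150 CPM on 44% fat. In NZO/HlLtJ the sums, 6860 to 8743 and 6879 to 9108 CPM, overlapped. The luteal sum moved with the steroid genes in CAST/EiJ, 2 of the 8 luteal markers (*Scarb1* and *Hsd3b1*) are also on the steroid list, and its part in their result was not tested.

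Wnt proteins are secreted signals that act through beta-catenin and its partners of the TCF and LEF family. Of 15 ligands and regulators tested, 9 lay below 0 at an unadjusted p under 0.05 (6.13% of all genes) and none above (5.25%), with a median of -0.87, and 2 passed in DESeq2 (1.07% of all genes) but none in edgeR. *Wnt4*, a ligand gene of granulosa and luteal cells that is needed for female gonad development, had 53.96, 42.7, 77.3 and 51.99 CPM on 10% and 208, 95.3, 277 and 94.2 CPM on 44% fat in CAST/EiJ. Its NZO/HlLtJ levels were 103, 109, 187 and 133 CPM on 10% and 101, 87.9, 79.3 and 93.8 CPM on 44% fat. It rose 2.99-fold in CAST/EiJ (adjusted p = 0.0454), the diets were separate in each strain and in opposite directions, and the difference was -2.13 ± 0.49 (log2, SE; adjusted p = 0.165). *Wnt10b*, another ligand gene, had 2.32, 0.516, 5.36 and 0.184 CPM on 10% and 79.6, 19.1, 128 and 21.7 CPM on 44% fat in CAST/EiJ, against 35.5, 67.6, 25.5 and 35.2 CPM and 60.8, 49.5, 5.36 and 69.9 CPM in NZO/HlLtJ. CAST/EiJ on 10% fat had the lowest mean of the 4 groups, and the fold in CAST/EiJ was 29.3 (adjusted p = 0.0219), with a difference of -4.69 ± 1.21 (log2, SE). *Axin2*, a target and inhibitor of the pathway, had a difference of -0.87 ± 0.26, and *Lef1*, one of its nuclear factors, -1.01 ± 0.30. *Sfrp4*, of a secreted Wnt binding protein that corpora lutea make, had 4.76, 53.1, 7.75 and 3.68 CPM on 10% and 303, 23.99, 208 and 24.6 CPM on 44% fat in CAST/EiJ and -3.91 ± 1.22 as its difference. The high value on 10% fat was that of the library with the oviduct markers, and *Sfrp4* is also counted in the luteal list.

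All 25 extracellular matrix genes tested had a difference below 0, from -2.65 to -0.04, against 9581 of all 20189 genes. At an unadjusted p under 0.05, 12 lay below 0 and none above (6.13% and 5.25% of all genes). The list's median was -0.48, none passed the adjusted threshold in edgeR and 1, *Mmp2*, passed in DESeq2 (1.07% of all genes). *Mmp2*, of the gelatinase that remodels basement membranes, had 229, 255, 279 and 191 CPM on 10% and 557, 332, 611 and 329 CPM on 44% fat in CAST/EiJ. In NZO/HlLtJ it had 154, 132, 254 and 205 CPM on 10% and 134, 142, 139 and 152 CPM on 44% fat, and the difference was -1.34 ± 0.32 (log2, SE; adjusted p = 0.165). The CAST/EiJ diets did not overlap, and 2 of the 4 libraries on 44% fat were well above the other 2. *Col1a1* and *Col5a1*, of fibrillar collagens, had differences of -1.01 ± 0.32 and -0.87 ± 0.25. *Timp1*, of an inhibitor of matrix proteases, had 16.6, 53.5, 15.2 and 14.1 CPM on 10% and 92.5, 28.6, 36.3 and 20.3 CPM on 44% fat in CAST/EiJ, where only replicate 2 on 10% fat, the library with the oviduct markers, reached into the range of 44% fat. Its NZO/HlLtJ levels were 59.8, 31.9, 163 and 50.5 CPM on 10% and 20.5, 20.9, 23.4 and 22.3 CPM on 44% fat.

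**Figure D4:**
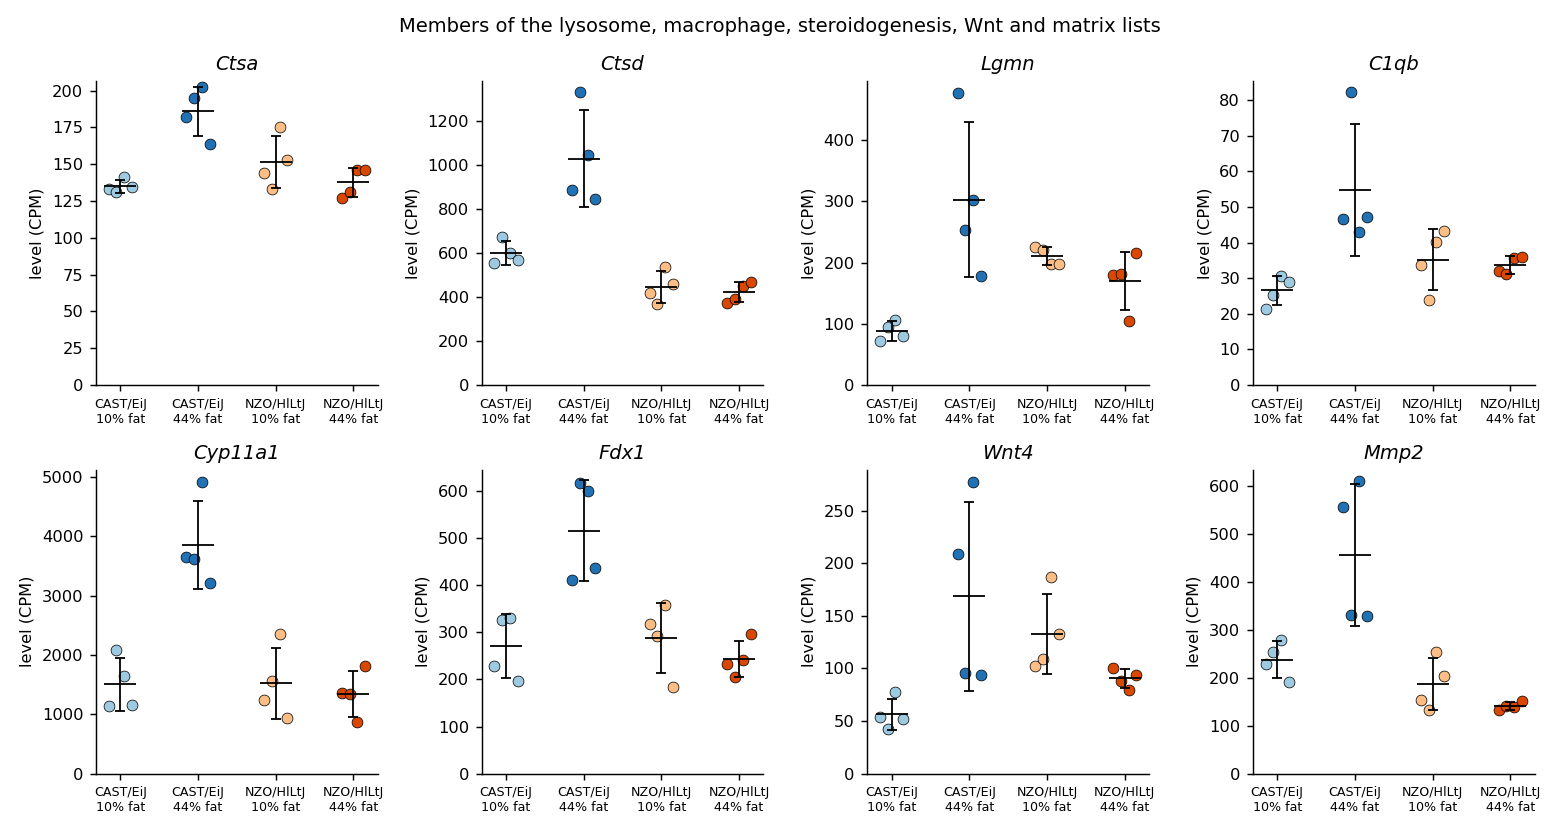
Levels (CPM, y axis from 0) of 8 members of the lysosomal, macrophage, steroid, Wnt and matrix lists in each library of the 4 groups on the x axis. Points are libraries, the horizontal line is the mean and the bars are ± SD (n = 4). In all 8 panels the CAST/EiJ libraries on 44% fat lie above those on 10% fat without overlap, and for *Wnt4* the NZO/HlLtJ diets are separate in the opposite direction. All 8 genes have an unadjusted strain-by-diet p under 0.05, and showing such genes favours separate diets. Over whole lists the CAST/EiJ diets did not overlap in 16 of 29 lysosomal, 8 of 13 macrophage and 6 of 15 steroid members. The counts were 6 of 15 for Wnt and 10 of 25 for matrix members, against 5.88% of all genes.

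Fatty acid oxidation genes had small differences, most of them below 0. Of 21 tested, 19 were negative, against 9581 of all 20189 genes, and the median was -0.20. At an unadjusted p under 0.05, 4 lay below 0 and none above (6.13% and 5.25% of all genes). None passed in edgeR, and *Acadm* passed in DESeq2 (adjusted p = 0.000522), where 1.07% of all genes passed. *Acadvl*, of the very long-chain dehydrogenase, had a difference of -0.33 ± 0.11 (log2, SE), *Eci1*, of an isomerase for unsaturated chains, -0.33 ± 0.13, and *Cpt1a*, of the enzyme that admits fatty acids to mitochondria, -0.62 ± 0.27. Chemokines and cytokines had 5 of 20 below 0 at an unadjusted p under 0.05 and none above, against the same shares of all genes. None passed in edgeR and 3 passed in DESeq2 (1.07% of all genes). Of the 20, 14 were negative and 6 positive, among them *Cxcl9* (1.81), *Ccl5* (1.12) and *Tnf* (0.94). The median was -0.66, and it was -0.25 without replicate 1 of CAST/EiJ on 44% fat and -0.28 without replicate 4 of NZO/HlLtJ on 10% fat. *Ccl9* and *Ccl6*, of neighbouring CC chemokines made by myeloid cells, had differences of -2.68 ± 0.64 and -2.38 ± 0.65 (log2, SE). *Ccl9* had 4.34, 7.96, 4.77 and 5.49 CPM on 10% and 13.7, 34.2, 14.8 and 15.3 CPM on 44% fat in CAST/EiJ, and NZO/HlLtJ means of 4.31 ± 3.09 and 2.33 ± 0.580 CPM. *Ccl9* was highest in replicate 2 of CAST/EiJ on 44% fat, the library with the highest macrophage sum. *Tgfb1*, of a growth factor, had a difference of -1.19 ± 0.32. *Ccl7*, of a monocyte attractant, had 4.02, 0.412, 0.955 and 6.89 CPM on 10% and 0.303, 0.317, 0.172 and 0.465 CPM on 44% fat in NZO/HlLtJ, and all CAST/EiJ libraries were under 1 CPM.

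Only oviduct and white adipocyte markers had medians above 2, and both medians were under 1 without 1 CAST/EiJ library. Of 10 oviduct epithelium markers, 6 lay above 0 at an unadjusted p under 0.05 and none below, with a median of 2.86. Of all genes, 5.25% lay above and 6.13% below. No marker passed in edgeR or in DESeq2, but DESeq2 gave no adjusted p for *Ovgp1*, *Foxj1*, *Ccdc39* and *Dnah9*. *Ovgp1*, of the glycoprotein that oviduct cells secrete, had 0.540, 4784, 3.004 and 4.07 CPM in CAST/EiJ on 10% fat and 4.04, 2.01, 21.1 and 3.17 CPM on 44% fat. *Foxj1*, of the master factor of motile cilia, had 0.352, 109, 1.51 and 1.16 CPM and 1.24, 0.701, 0.729 and 0.649 CPM, and *Tekt1*, of a ciliary filament protein, 0.798, 13.8, 0.621 and 0.762 CPM and 0.438, 0.396, 0.449 and 0.500 CPM. *Pax8*, of a transcription factor of the oviduct lining, had 1.31, 35.4, 4.54 and 1.08 CPM on 10% fat. Without replicate 2 of CAST/EiJ on 10% fat the list's median was 0.38, with no member at an unadjusted p under 0.05 in either direction. Of 11 white adipocyte markers, 1 (*Lep*, of leptin) lay above 0 at that p and none below, against 5.25% and 6.13% of all genes. Their median was 2.35, and it was -0.44 without the same library and 0.93 without replicate 3 of NZO/HlLtJ on 44% fat. In *Fabp4*, of the fatty acid binding protein of adipocytes, the CAST/EiJ levels were 30.1, 752, 14.6 and 10.8 CPM on 10% and 149, 86.5, 7.32 and 6.57 CPM on 44% fat, and the difference, 2.35 ± 1.76 (log2, SE), was -1.08 without it. *Adipoq*, of adiponectin, and *Cidec*, of a lipid droplet protein, had 6.52, 198, 1.84 and 0.946 CPM and 5.75, 177, 1.81 and 1.21 CPM in the same group on 10% fat.

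**Figure D5:**
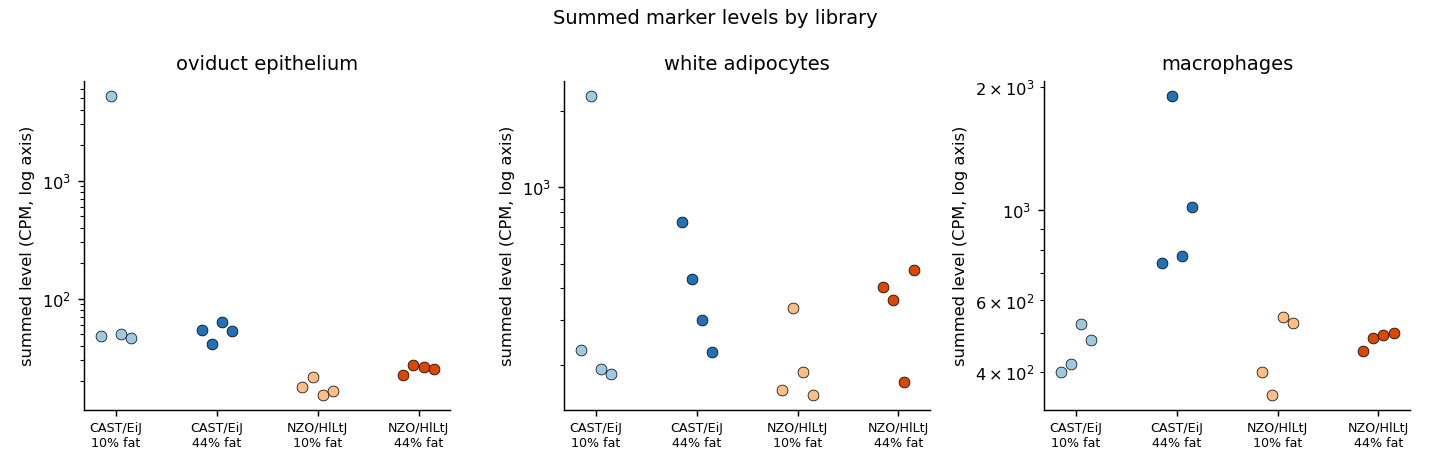
Summed levels (CPM, logarithmic y axis) of the oviduct epithelium, white adipocyte and macrophage markers in each library of the 4 groups on the x axis. One CAST/EiJ library on 10% fat, replicate 2, has 5218 CPM of oviduct and 2282 CPM of adipocyte markers, and the 4 CAST/EiJ libraries on 44% fat have the highest macrophage sums.

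The remaining 23 lists held 0 to 5 members at an unadjusted p under 0.05, and none of their members passed the adjusted threshold in edgeR. Of all genes, 6.13% lay below 0 and 5.25% above at that unadjusted p. In DESeq2, where 1.07% of all genes passed, 1 member passed in each of the theca, luteolysis, glycolysis, antioxidant and insulin lists and none in the other 18. The theca member, *Fdx1*, was already counted in the steroid list, and the luteolysis member, *Akr1c18*, in the luteal list. Oocyte markers had 0 of 14 in either direction, although 13 were positive (median 0.35), and proliferation genes 0 of 20, with 17 positive (median 0.32). Granulosa cell markers had 2 of 13 above 0 (median 0.15), and theca cell markers 2 of 8 below and 1 above (median -0.64). Endothelial markers and smooth muscle and pericyte markers had 0 of 10 each (medians -0.22 and -0.19), red blood cell markers 0 of 7 (-0.32) and class II histocompatibility genes 0 of 7 (-0.15). Lymphocyte and natural killer cell markers had 1 of 14 below 0 (median 0.20), and neutrophil markers 1 of 4 below (-0.48). Surface epithelium and mesothelium markers had 2 of 10 above 0 (median 0.27).

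Counts of the pathway lists are at the same unadjusted p, where all genes had 6.13% below 0 and 5.25% above. Among the pathways, cholesterol synthesis and uptake had 1 of 22 below 0 (median -0.30), and fatty acid synthesis and desaturation 4 of 17 below and 1 above (-0.12). Oxidative phosphorylation had 3 of 22 below (-0.16), glycolysis 4 of 17 below and 1 above (-0.31), and antioxidant and detoxification genes 4 of 21 below (-0.17). Genes of the unfolded protein response, which restore protein folding in the endoplasmic reticulum, had 2 of 20 below (median -0.18). Their NZO/HlLtJ diets did not overlap in 8 of 20 members (2.96% of all genes), and the CAST/EiJ diets overlapped in all 20 (5.88% of all genes did not). The list's median per library lay between -0.30 and -0.16 in NZO/HlLtJ on 44% fat, below the -0.04 to 0.03 on 10% fat, while the CAST/EiJ diets overlapped. Interferon response genes had 3 of 20 above (median 0.18), hedgehog signalling 2 of 10 above (0.17), and genes induced at ovulation by luteinizing hormone 2 of 13 above (0.21). Genes of luteolysis had 3 of 12 below (median -0.10), immediate early genes 3 of 22 below (-0.07), and insulin and insulin-like growth factor signalling 2 of 19 in each direction (-0.12).

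Without replicate 2 of CAST/EiJ on 10% fat, 13 of these 23 medians moved by over 1.5 times. Of all genes, 8.27% then lay below 0 and 5.91% above at an unadjusted p under 0.05. Proliferation genes then had a median of 0.51, with 10 of 20 above 0 at an unadjusted p under 0.05. Genes induced at ovulation had a median of -1.15, the other side of 0 from the value with all libraries. Granulosa cell markers had a median of 0.39, with 4 of 13 above 0 at that p. Genes of the unfolded protein response had a median of -0.31, with 6 of 20 below 0 at that p, and those of fatty acid synthesis and desaturation -0.43, also with 6 below. Medians for the cell types were -0.87 for neutrophils, 0.07 for surface epithelium and mesothelium and -1.07 for red blood cells. The remaining medians were 0.11 for the interferon response, -0.37 for class II histocompatibility genes, -0.45 for luteolysis, -0.43 for immediate early genes and 0.26 for hedgehog signalling.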

How the data were processed

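RNA of mouse ovaries was sequenced after polyA selection as 100 bp read pairs, per the labels' protocols. The authors deposited a table of expected counts per gene, estimated and not normalized, and a table of log2 variance-stabilised values. The submitters' processing notes name the build GRCm38 and DESeq2, and the counting tool is not given in the sources used here. Of the values, 27.4% were not whole, so expected counts were rounded. Every gene listed was above 0 in at least 12 libraries.

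Low genes were removed by filterByExpr (minimum count 10 and total 15, groups as given), TMM factors scaled the libraries, and a robust quasi-likelihood fit in edgeR 4.0.16 (R 4.3.3) estimated 6 group means from 23 libraries. The contrast was (NZO/HlLtJ 44% minus 10% fat) minus (CAST/EiJ 44% minus 10% fat), with Benjamini-Hochberg adjustment over 20189 genes and a threshold of 0.05. The SE is the log2 difference divided by the square root of F. Levels are CPM on the scaled libraries, with a prior count of 2 where log2 CPM was used. The scripts were tested on simulated data.

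With under 10 genes past the threshold, the 20 with the smallest p were named (mean of at least 1 CPM in a group, no clone, predicted or pseudogene names), and up to 4 members with the smallest p from each list described. Members, lists and the promoter element were chosen with earlier results of these data known. Lists are described by counts and medians, with no test. The promoter table held no entry for *Tbx3*, *Cotl1* or *Tst*.

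Whether the libraries are from different animals is not stated in the labels, and the p-values then reflect only their spread, which may be technical. For the 24 pairs within the 4 groups, chi-square over degrees of freedom was 11.6 to 203.5, far above sampling noise, so no library looked deposited again. Replicates were numbered in deposit order. Gene positions are those of the authors' annotation. Alternatives used DESeq2 1.42.0, limma 3.58.1 and sva 3.50.0.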

Additional observations from a re-analysis of the deposited data

Results flagged for a closer look

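For *Tbx3*, *Cotl1* and *Tst* the diet difference itself differed between the strains, by -1.39, -1.11 and -1.19 on the log2 scale (NZO/HlLtJ minus CAST/EiJ). These are the genes past the threshold in the report.

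In 40 of 256 groups of 4 libraries, over the 62 named genes and the oviduct and adipocyte sums, 1 library lay so far from the other 3 that its gap, as a share of the group's range, exceeded Dixon's 95% critical value. For independent, normally spread values chance would give about 12.8 such groups. The sums contain genes that were also counted singly, so the groups were not independent. In replicate 2 of CAST/EiJ on 10% fat, the level in CPM was apart for *Adipoq* 198 (the other 3 at 0.946 to 6.52), *Caps2* 7.36 (the other 3 at 4.92 to 5.05), *Ccl6* 5.54 (the other 3 at 2.48 to 2.84), *Cidec* 177 (the other 3 at 1.21 to 5.75), *Fabp4* 752 (the other 3 at 10.8 to 30.1), *Foxj1* 109 (the other 3 at 0.352 to 1.51), *Lep* 14.1 (the other 3 at 0.124 to 0.633), *Ovgp1* 4784 (the other 3 at 0.540 to 4.07), *Pax8* 35.4 (the other 3 at 1.08 to 4.54), *Sfrp4* 53.1 (the other 3 at 3.68 to 7.75), *Tekt1* 13.8 (the other 3 at 0.621 to 0.798), *Timp1* 53.5 (the other 3 at 14.1 to 16.6), the summed oviduct epithelium markers 5218 (the other 3 at 46.6 to 50.3) and the summed white adipocyte markers 2282 (the other 3 at 184 to 228). In replicate 3 of CAST/EiJ on 10% fat, the level in CPM was apart for *Sez6l2* 21.1 (the other 3 at 11.7 to 13.3). In replicate 1 of CAST/EiJ on 44% fat, the level in CPM was apart for *Foxj1* 1.24 (the other 3 at 0.649 to 0.729), *Lef1* 6.57 (the other 3 at 3.93 to 4.22) and *Plekhg4* 196 (the other 3 at 16.3 to 42.5). In replicate 2 of CAST/EiJ on 44% fat, the level in CPM was apart for *Atp6v0d2* 43.9 (the other 3 at 15.2 to 17.7), *C1qa* 89.4 (the other 3 at 44.2 to 51.5), *C1qb* 82.3 (the other 3 at 42.9 to 47.1), *Ccl6* 19.8 (the other 3 at 6.84 to 7.76) and *Ccl9* 34.2 (the other 3 at 13.7 to 15.3). In replicate 3 of CAST/EiJ on 44% fat, the level in CPM was apart for *Cyp4f14* 9.03 (the other 3 at 4.32 to 4.97), *Cyp4f18* 65.2 (the other 3 at 34.4 to 38.0), *Ovgp1* 21.1 (the other 3 at 2.01 to 4.04) and *Scarb1* 1036 (the other 3 at 606 to 646). In replicate 2 of NZO/HlLtJ on 10% fat, the level in CPM was apart for *Tekt1* 0.595 (the other 3 at 0.419 to 0.436). In replicate 3 of NZO/HlLtJ on 10% fat, the level in CPM was apart for *Cpt1a* 457 (the other 3 at 260.4 to 289), *Cyb5b* 419 (the other 3 at 339 to 349.7), *Dnajc15* 144 (the other 3 at 71.8 to 83.4) and *Fabp4* 10.5 (the other 3 at 1.76 to 3.14). In replicate 4 of NZO/HlLtJ on 10% fat, the level in CPM was apart for *Lep* 0.157 (the other 3 at 0 to 0.0229) and *Pax8* 0.524 (the other 3 at 0.275 to 0.282). In replicate 3 of NZO/HlLtJ on 44% fat, the level in CPM was apart for *Adipoq* 2.95 (the other 3 at 0.0606 to 0.375), *Cidec* 6.76 (the other 3 at 0.0303 to 1.07), *Col5a1* 172 (the other 3 at 204 to 208), *Cyp4f14* 3.61 (the other 3 at 5.33 to 5.58) and *Ptgfr* 31.3 (the other 3 at 219 to 239.5). In replicate 4 of NZO/HlLtJ on 44% fat, the level in CPM was apart for *Tst* 102 (the other 3 at 82.8 to 84.7).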

How the results depend on the processing

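The count of 3 genes past the threshold became 194 with DESeq2, 195 with limma voom and library quality weights, and 331 within identifier series 76, each time with all 3 genes among them. It became 0 with the identifier series as a term (2033 genes at an unadjusted p under 0.05), with 2 surrogate variables (1925), with only the 16 libraries (2177) and, in an alternative chosen after the data were seen, with limma voom without weights (1786). It was 4 with limma on the authors' variance-stabilised values, 3 with no count filter, 3 with relative log expression scaling and, in another alternative chosen after the data were seen, 5 without both libraries highest in oviduct markers (CAST/EiJ 10% fat replicate 2 and C57BL/6J 44% fat replicate 1). Leaving out 1 library at a time gave 0 to 11. It was 11 without NZO/HlLtJ 10% fat replicate 2 and 7 without CAST/EiJ 10% fat replicate 3. It was 1 without C57BL/6J 44% fat replicate 1 or 4. It was 0 without any single C57BL/6J library on 10% fat or NZO/HlLtJ library on 44% fat. It was also 0 without replicate 2 or 3 of C57BL/6J on 44% fat, replicate 1 or 4 of CAST/EiJ on 10% fat, replicate 1 or 3 of CAST/EiJ on 44% fat, or replicate 3 or 4 of NZO/HlLtJ on 10% fat. *Tbx3* lost its call in 19 of 34 alternatives (adjusted p up to 0.165), *Cotl1* and *Tst* in 23 each (up to 0.212), and the cause was not tested. Over 62 named genes and 2106 gene settings, 1938 kept direction and side of the threshold, 95 newly passed, 65 no longer passed and 8 reversed. The reversed values, none past the threshold, were -1.95 for *Adipoq*, -1.85 for *Cidec* and -0.84 for *Fabp4* with 2 surrogate variables, -1.21 for *Cidec* and -1.69 for *Fabp4* within series 76, and, for *Fabp4*, -0.096 with quality weights, -1.07 without both oviduct-rich libraries and -1.08 without CAST/EiJ 10% fat replicate 2, where leaving out 1 library at a time gave -1.08 to 3.26. The lysosomal median stayed between -0.56 and -0.39 over the alternatives, and the median of all genes between -0.01 and 0.03. No paired analysis was possible because the labels carry no replicate numbers shared between groups. Of the lists named in the report, medians moved by over 1.5 times to -0.44 (Wnt) and -0.30 (matrix) with 2 surrogate variables, and to -0.30 (fatty acid oxidation) and -0.75 (steroid synthesis) when identifier series entered the model. Those of the chemokine, lipid-laden macrophage, oviduct and adipocyte lists moved as far under 1 or more alternatives. The median SE was 0.85 (log2) in the 25% of genes with the lowest mean level and 0.13 in the 25% with the highest, and what depth adds to this was not tested.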
